A study of Homo sapiens with 4 samples.

Results

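Wnt signalling genes were examined as sites of FOXK1 binding: the 3 Dishevelled genes DVL1, DVL2 and DVL3, and CTNNB1, AXIN1, AXIN2, APC, LEF1, TCF7L2 and LRP6. The 10 genes were taken by name from RefSeq on GRCh38, out of 20037 protein-coding genes. Every FOXK1 peak that overlapped a gene body or the 5 kb on either side was kept, which gave 151 of 381700 peaks from untreated cells and 163 of 439136 peaks from cells given TGF-β1. Cells of HK-2, a line of human proximal tubule epithelium immortalised with papillomavirus genes, were either left untreated or exposed for 24 h to 10 ng/ml TGF-β1, a cytokine of fibrosis. Chromatin bound by FOXK1, a forkhead transcription factor, was recovered with an antibody and sequenced, and input chromatin was sequenced without one. Both conditions shared the line and the culture medium, and each had 1 FOXK1 library and 1 input library. The design text of the series mentions transfection, and whether these cells were transfected was not given in the sources used here.

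Each peak carried a pileup height, the whole number of fragments stacked at its top. The median height was 5 in each list, and 81.9% and 87.3% of all peaks in the untreated and the TGF-β1 list were no higher than 7. Depth is unknown, there was no replicate, and no p-value is given. Heights therefore rank peaks within a list and do not measure a change between conditions. A strong peak was one at least as high as the 10000th highest of its own list, which meant a height of 17 in the untreated list and of 15 in the TGF-β1 list. Strong peaks made up 2.90% and 2.58% of the 2 lists. A start peak overlapped the 1 kb on either side of a listed transcription start. AXIN2 and LRP6 had no listed start, so both ends of these genes were used, and the peaks found were all at the end with the higher coordinate.

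In the canonical Wnt pathway, a Wnt ligand brings a Frizzled receptor together with the co-receptor LRP5 or LRP6, and Dishevelled is recruited to them. Without a ligand, AXIN, APC and the kinases GSK3 and CK1 mark β-catenin, the product of CTNNB1, for destruction. With a ligand, β-catenin accumulates and joins TCF/LEF factors such as LEF1 and TCF7L2 on their target genes, of which AXIN2 is a widely used readout. FOXK1 and FOXK2 are themselves known to bind Dishevelled and to carry it into the nucleus. In the kidney, the pathway acts in nephron formation and is active in injured and fibrotic tubules.

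All 10 genes had a start peak in both lists. The background over all protein-coding genes was 70.7% for untreated cells, 69.4% for TGF-β1 and 59.8% for both lists at once. The start peak was strong for 6 members in the untreated list, which were LRP6, DVL3, AXIN1, AXIN2, APC and TCF7L2, against 17.0% of protein-coding genes. In the TGF-β1 list it was strong for 3, LRP6, DVL3 and TCF7L2, against 15.6%. The median start height of the members was 20.5 and 10.5 in the 2 lists, and that of all protein-coding genes was 7 in each. With the stricter threshold of the 5000th highest peak, 3 members were strong in the untreated list, against 9.18% of genes, and 2 in the TGF-β1 list, against 7.70%. The members were longer than most genes, with a median of 53.1 kb against 24.1 kb, and some had several listed starts, so members and background are not matched.

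**Figure D1:**
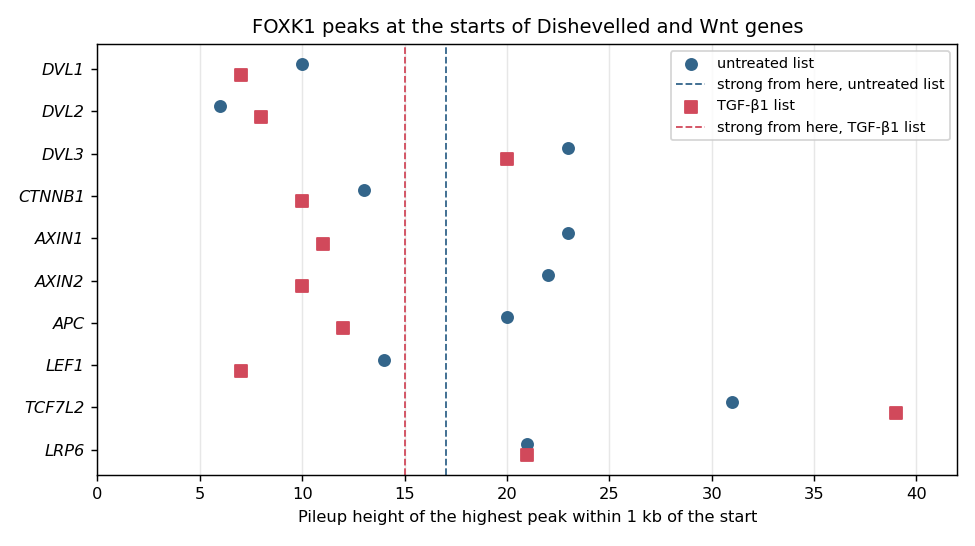
Pileup height (horizontal axis) of the highest FOXK1 peak within 1 kb of the start of each of the 10 genes, as a circle for the untreated list and a square for the TGF-β1 list, with dashed lines at the heights from which a peak was strong (17 and 15). LRP6, DVL3 and TCF7L2 lie past the line in both lists, while AXIN1, AXIN2 and APC do so in the untreated list.

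RefSeq promoter entries on GRCh38.p14 matched 8 of the 10 genes by symbol, with 11 starts, and the 250 bases before each start were searched. A peak overlapped 7 of these 11 windows in each list. The windows of TCF7L2, APC, AXIN1, CTNNB1, LEF1 and DVL2 are shown because they carried a peak in both lists. They are given 5′ to 3′ on the strand of the gene, and capitals mark the 1 forkhead word found. They lie at chr10:112949997-112950246 (plus strand), chr5:112737635-112737884 (plus strand, the downstream of 2 APC starts), chr16:352724-352973 (minus strand), chr3:41199255-41199504 (plus strand), chr4:108166302-108166551 (minus strand) and chr17:7234518-7234767 (minus strand).
TCF7L2: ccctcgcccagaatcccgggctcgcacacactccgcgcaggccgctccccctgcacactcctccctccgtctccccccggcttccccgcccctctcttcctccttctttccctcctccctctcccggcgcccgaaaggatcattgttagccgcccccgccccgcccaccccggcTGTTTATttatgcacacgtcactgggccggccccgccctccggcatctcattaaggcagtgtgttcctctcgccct
APC: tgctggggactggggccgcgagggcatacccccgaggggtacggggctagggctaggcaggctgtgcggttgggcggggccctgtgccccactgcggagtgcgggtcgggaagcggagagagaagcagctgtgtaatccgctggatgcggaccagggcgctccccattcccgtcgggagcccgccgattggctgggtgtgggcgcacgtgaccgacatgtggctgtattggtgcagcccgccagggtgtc
AXIN1: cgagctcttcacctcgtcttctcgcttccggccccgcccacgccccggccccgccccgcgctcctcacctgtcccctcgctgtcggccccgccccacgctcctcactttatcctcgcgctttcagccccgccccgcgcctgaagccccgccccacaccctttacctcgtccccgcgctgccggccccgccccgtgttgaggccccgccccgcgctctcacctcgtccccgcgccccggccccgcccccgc
CTNNB1: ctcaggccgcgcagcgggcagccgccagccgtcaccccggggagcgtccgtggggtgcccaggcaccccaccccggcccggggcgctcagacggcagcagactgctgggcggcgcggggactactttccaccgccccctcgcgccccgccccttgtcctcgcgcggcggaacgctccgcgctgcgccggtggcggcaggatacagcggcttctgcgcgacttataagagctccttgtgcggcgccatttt
LEF1: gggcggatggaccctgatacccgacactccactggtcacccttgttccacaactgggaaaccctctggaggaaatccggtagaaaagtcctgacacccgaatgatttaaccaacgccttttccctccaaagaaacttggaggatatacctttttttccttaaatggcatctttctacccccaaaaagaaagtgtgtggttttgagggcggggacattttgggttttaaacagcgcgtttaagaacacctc
DVL2: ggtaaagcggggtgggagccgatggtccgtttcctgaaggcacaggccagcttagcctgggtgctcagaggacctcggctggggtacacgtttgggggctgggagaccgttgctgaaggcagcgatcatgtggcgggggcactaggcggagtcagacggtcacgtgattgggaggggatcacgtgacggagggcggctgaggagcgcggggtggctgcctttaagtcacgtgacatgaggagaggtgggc

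The words searched on both strands were GTAAACA and ATAAACA for forkhead factors, CTTTGAT and CTTTGAA for TCF/LEF factors and TGACTCA for AP-1. No word contains another, and the 2 forkhead words differ in their first base. The single match in the 11 windows was TGTTTAT, the reverse complement of ATAAACA, 76 to 70 bp before the first TCF7L2 start. That start also had the highest start peak of the 10 genes in both lists. Among 22199 promoter windows of protein-coding genes, 2.86% held ATAAACA, 2.45% GTAAACA, 1.78% CTTTGAT, 3.21% CTTTGAA and 3.45% TGACTCA. Of the 1939 windows under a strong peak in both lists, 7.01% held GTAAACA, against 2.28% of the 9242 windows with no peak in either list. ATAAACA, the word found at TCF7L2, was in 3.66% of the first and 3.46% of the second. CTTTGAT was in 1.19% and 2.41%, CTTTGAA in 1.65% and 4.32%, and TGACTCA in 2.73% and 3.69%. The member windows ranged in GC content from 42.4% at the second TCF7L2 start, where no peak lay, to 83.2% at DVL1, where none lay either, and the median over all windows was 62.0%. LEF1 stood low among the windows with a peak, at 47.6% with 8 CpG dinucleotides, and AXIN1 stood high, at 77.6% with 35.

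LRP6, the co-receptor for Wnt ligands, carried FOXK1 at its higher-coordinate end and again deep in the gene. The gene lies on chromosome 12 from 12116025 to 12267044. The untreated peak at that end had a height of 21 and covered 12265919 to 12267822, and the TGF-β1 peak had a height of 21 and covered 12266516 to 12267720. The heights were equal and the places overlapped. Start peaks at least this high occurred at 11.1% of coding genes for the untreated library and at 7.70% for the TGF-β1 library. A second site lay about 50.3 kb inside the gene, with heights of 21 in the untreated and 14 in the TGF-β1 list. The untreated list also had a peak of 15 at 59.1 kb, which a TGF-β1 peak of 4 overlapped, and a peak of 11 at 52.05 kb, which no TGF-β1 peak overlapped. The gene and its flanks held 14 and 24 peaks in all, or 8.69 and 14.9 per 100 kb. These densities were below the medians of all protein-coding genes, 16.1 and 17.96.

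The 3 Dishevelled genes, whose products relay the signal from the receptors, differed in their peaks. DVL3 was the strong one. Its untreated peak of 23 covered 184155795 to 184157244 on chromosome 3, and its TGF-β1 peak of 20 covered 184156196 to 184157345. Both peaks lay inside the gene, 418 to 1867 bp and 819 to 1968 bp past the start, and neither touched the start itself. A separate untreated peak of 11 lay 878 to 193 bp before the start and had no counterpart in the TGF-β1 list. The highest peaks in the window around DVL3, 35 in the untreated and 31 in the TGF-β1 list, lay 21.5 and 21.6 kb past its start, beyond its end and in the body of its neighbour AP2M1, which encodes a clathrin adaptor subunit. Over the DVL3 body alone the highest peaks were 23 and 20.

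DVL1 and DVL2 had low peaks. The DVL1 peak nearest the start had a height of 10 in the untreated and 7 in the TGF-β1 list, lay 739 to 1822 bp and 859 to 1632 bp into the gene, and overlapped between the lists. As in DVL3, this peak lay inside the gene and missed the start. A pair of untreated peaks of 9 and 8, about 4.11 and 4.72 kb into DVL1, were both met by 1 TGF-β1 peak of 7. DVL2 had a peak across its start with a height of 6 in the untreated and 8 in the TGF-β1 list, from 247 bp before the start to 40 bp past it and from 207 bp before to 182 bp past. The highest untreated peak kept for DVL2, with a height of 15, lay 5.1 kb before the start, at the edge of the 5 kb flank, within 1 kb of the start of PHF23, and without it the highest over the body was 6. At 41.4 and 31.3 peaks per 100 kb in the untreated list, DVL1 and DVL2 had the densest peaks of the 10 genes. The median of all protein-coding genes was 16.1. The density of DVL1 in the TGF-β1 list was 20.7, that of DVL2 31.3 and that of DVL3 38.95, against a median of 17.96. These densities include the flanks, which held 2 of 10 untreated peaks at DVL1 and 2 of 6 at DVL2. Of the TGF-β1 peaks, the flanks held 2 of 5 at DVL1, 3 of 6 at DVL2 and 4 of 11 at DVL3. Some of these flank peaks lay in the bodies of the neighbours TAS1R3, PHF23, ACADVL and AP2M1.

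**Figure D2:**
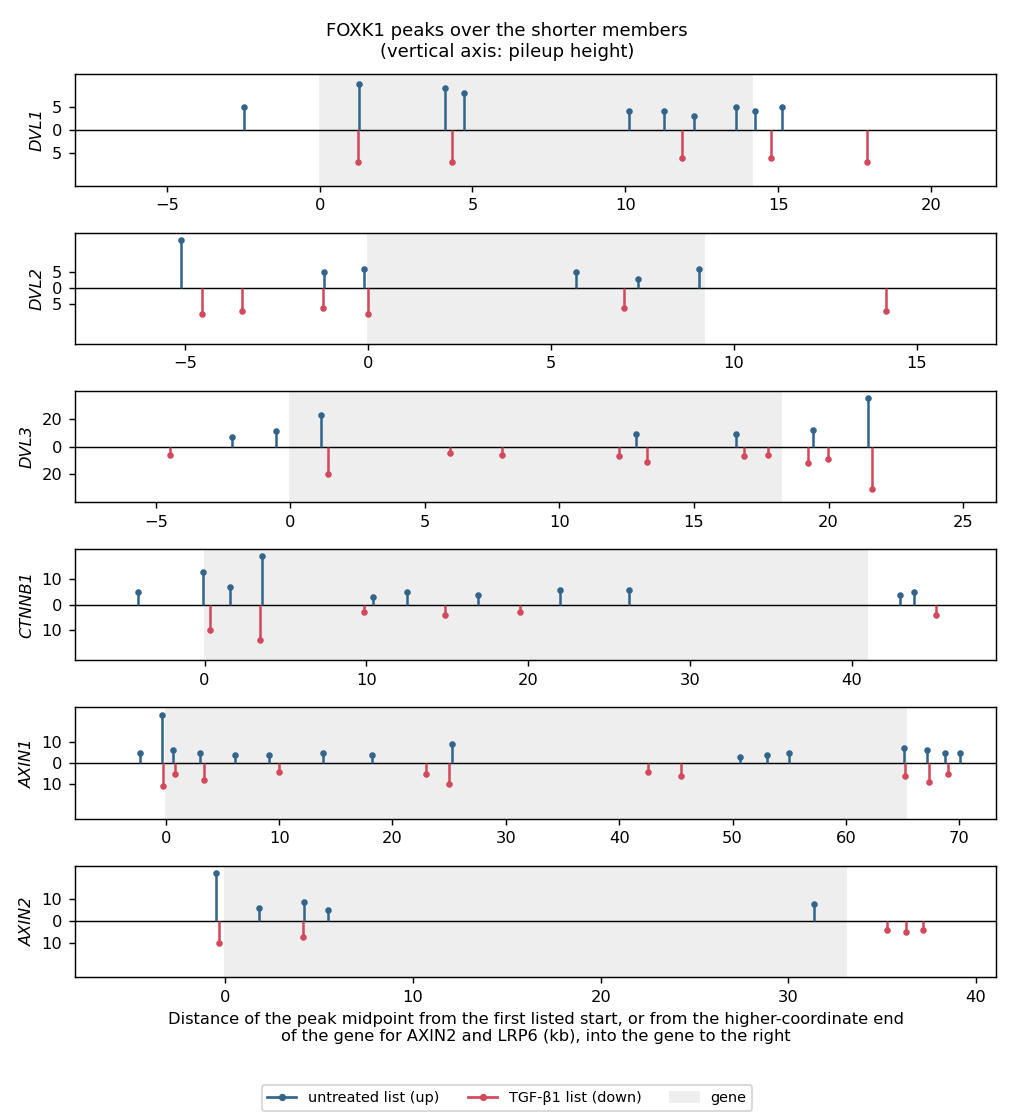
FOXK1 peaks over DVL1, DVL2, DVL3, CTNNB1, AXIN1 and AXIN2, as stems at the distance of the peak midpoint from the start, or for AXIN2 from the higher-coordinate gene end, in kb (horizontal axis), with pileup height upwards for the untreated list and downwards for the TGF-β1 list and the gene in grey. The highest stems of AXIN1 and AXIN2 stand just before the gene, and those of CTNNB1 3.57 and 3.44 kb inside it.

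In the untreated list, AXIN1, AXIN2 and APC of the β-catenin destruction complex had 1 strong peak each, at a start or, for AXIN2, at a gene end. In the TGF-β1 list the peak there was the highest of each gene but not strong. AXIN1, the scaffold of the complex, had an untreated peak of 23 from 352755 to 353377 on chromosome 16 and a TGF-β1 peak of 11 from 352698 to 353263. The first lay wholly before the start, by 654 to 32 bp, and the second reached 25 bp past it. The other AXIN1 peaks had heights of at most 9 in the untreated and 10 in the TGF-β1 list, and the 2 peaks of 9 and 10 overlapped each other 25 kb into the gene. AXIN2, the inducible counterpart of AXIN1, had an untreated peak of 22 from 65561944 to 65562321 on chromosome 17 and a TGF-β1 peak of 10 from 65561676 to 65562309. Both lay outside the gene, beyond its higher-coordinate end. The start heights of AXIN1 were reached by 9.18% of protein-coding genes in the untreated and 28.0% in the TGF-β1 list. Both genes thus had a strong peak in the untreated list and a peak below the strong height, at the same place, in the TGF-β1 list.

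APC, the large tumour suppressor that holds the complex together, has 2 listed starts on chromosome 5. At the downstream start, 30.4 kb into the gene, the untreated list had a peak of 20 from 112737585 to 112738451 and the TGF-β1 list a peak of 12 from 112737671 to 112738927, and they overlapped. At the upstream start the TGF-β1 list had a peak of 8 and the untreated list had none over it. An untreated peak of 3 lay 853 to 599 bp before that start and did not overlap the TGF-β1 peak. Over the gene and its flanks there were 23 untreated and 42 TGF-β1 peaks, of which 7 in each list overlapped the other. These were 30.4% and 16.7%, against 26.1% and 22.9% of the whole lists. Of the APC peaks, 22 and 41 were below a height of 10. Apart from the downstream start, the highest was 9 and 8. Over the whole of chromosome 5, the TGF-β1 list had 1.09 times as many peaks as the untreated list.

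CTNNB1, which encodes β-catenin, had 2 sites close together near its start on chromosome 3. The first, over the start, had heights of 13 and 10 in the untreated and the TGF-β1 list. The second, higher in both lists, had 19 and 14 and covered 41202353 to 41203798 and 41202073 to 41203807, which is 2848 bp to 4293 bp and 2568 bp to 4302 bp past the start. The untreated peak of 19 was strong, and the TGF-β1 peak of 14 was 1 below the strong height. No other peak over CTNNB1 or its flanks exceeded 7 in the untreated or 4 in the TGF-β1 list. Among protein-coding genes with 1 listed start and a strong highest peak within 5 kb of it, the midpoint of that peak lay over 500 bp downstream of the start in 20.2% (458 of 2272) in the untreated list and 22.0% (467 of 2125) in the TGF-β1 list. In 59.8% and 54.4% it lay within 500 bp of the start. Of the members, DVL3 in both lists and CTNNB1 in the untreated list were in the downstream class.

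LEF1 and TCF7L2 encode DNA-binding partners of β-catenin. LEF1, on chromosome 4, had 1 peak over 8 in the untreated list, with a height of 14 from 108166222 to 108167089, across the listed start. That start is the only one listed and lies 2631 bp inside the gene. The TGF-β1 peak there had a height of 7 and lay 500 to 187 bp before the start. The untreated peak was also within 1 kb of the start of LOC124900752. LEF1 and its flanks held 19 untreated and 9 TGF-β1 peaks, and this start site was the only place where they overlapped. The overlapped share was 5.26% and 11.1%, against 26.1% and 22.9% of the whole lists. Of the LEF1 peaks, 18 and 9 were below a height of 10. On chromosome 4 as a whole the TGF-β1 list had 1.38 times as many peaks as the untreated list. With depth unknown, these counts do not measure a change between conditions.

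TCF7L2 had the highest peaks of the 10 genes in both lists, and the highest of them lay far inside the gene. It occupies chromosome 10 from 112950247 to 113167678. The highest untreated peak, with a height of 95, covered 113087215 to 113087927, 137.32 kb past the first start, and ranked 127 among all untreated peaks. The TGF-β1 peak at the same place had a height of 66, covered 113087135 to 113088181 and ranked 282. Both were about 39 kb before the nearest of the 2 other listed starts. Only 0.659% of coding genes reached this height over the body and flanks in untreated cells, and 1.23% reached the TGF-β1 height. A second internal site, 123.61 and 123.84 kb past the first start, had heights of 38 and 23. Further internal sites had 15 and 26 at 143.53 and 143.86 kb, and 14 and 13 at 157.09 and 157.17 kb. All 4 sites were found in both lists. The midpoints of the first 3, in order along the gene, spanned 19.9 kb in the untreated and 20.0 kb in the TGF-β1 list.

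The first start of TCF7L2 had a peak of 31 from 112949880 to 112951152 in the untreated list and of 39 from 112949393 to 112950621 in the TGF-β1 list. The other 2 starts, 176.4 and 179.0 kb downstream, had no start peak in either list. Between 3 and 52 kb past the first start, a stretch chosen after its values were seen, the TGF-β1 list had 9 peaks of height 10 or more among 13, and the untreated list had 2 among 12. Of the 9, 4 were overlapped by an untreated peak of some height. The highest of these TGF-β1 peaks, with 22 from 112981492 to 112981848, was the 1 strong peak over any member with no counterpart in the other list. At 5.99 and 5.94 kb both lists had a peak, of 18 and 12. TCF7L2 and its flanks held 40 and 44 peaks in all, or 17.6 and 19.3 per 100 kb, close to the medians of all protein-coding genes. A height of 10 or more was reached by 8 of the 40 and 17 of the 44, and by 9.66% and 6.71% of the whole lists. Such peaks made up 4 of 7 and 4 of 11 at DVL3, and 4 of 14 and 2 of 24 at LRP6.

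**Figure D3:**
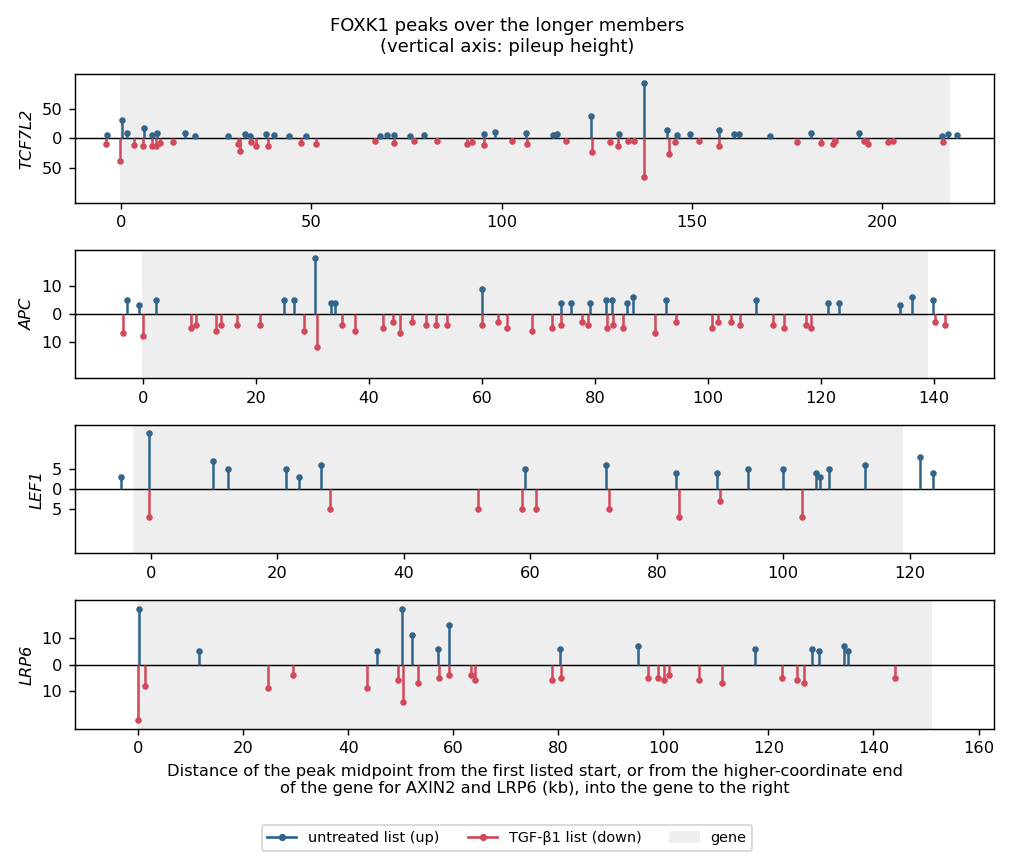
FOXK1 peaks over TCF7L2, APC, LEF1 and LRP6, drawn as stems at the distance of the peak midpoint from the first start, or for LRP6 from the higher-coordinate gene end, in kb (horizontal axis), with pileup height upwards for the untreated list and downwards for the TGF-β1 list and the gene in grey. The site of 95 and 66 in TCF7L2 stands 137 kb past the first start, and the tallest APC stems, 20 and 12, stand at its downstream start.

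Sites with high peaks over the 10 genes were found in both lists and low ones mostly were not. Of the 151 untreated peaks, 54 (35.8%, exact 95% interval 28.1 to 44.0) overlapped a TGF-β1 peak by at least 1 bp, against 26.1% of the whole list. Of the 163 TGF-β1 peaks, 56 (34.4%, 27.1 to 42.2) overlapped an untreated peak, against 22.9%. These intervals cover counting error only and treat each peak as an independent draw. The peaks came from 1 library per condition and cluster in 10 genes, with 40 and 44 of them at TCF7L2. The intervals are therefore no test of the members against the whole lists. Every one of the 15 untreated peaks of height 15 or more was overlapped, as were 7 of 8 TGF-β1 peaks, against 94.2% and 93.5% in the whole lists. Of peaks of height 3 or 4, 4 of 31 and 6 of 43 were overlapped, and the whole lists had 12.1% and 11.7%. At heights of 10 or more, 20 of 24 untreated peaks were overlapped against 82.8% of the whole list, and 24 of 29 TGF-β1 peaks against 84.7%. Heights of 5 to 9 held most of the member peaks, and there 30 of 96 (31.3%) and 26 of 91 (28.6%) were overlapped, against 24.0% and 23.3%. At heights of 10 to 14 it was 5 of 9 untreated peaks against 75.2%, and 17 of 21 TGF-β1 peaks against 79.2%.

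**Figure D4:**
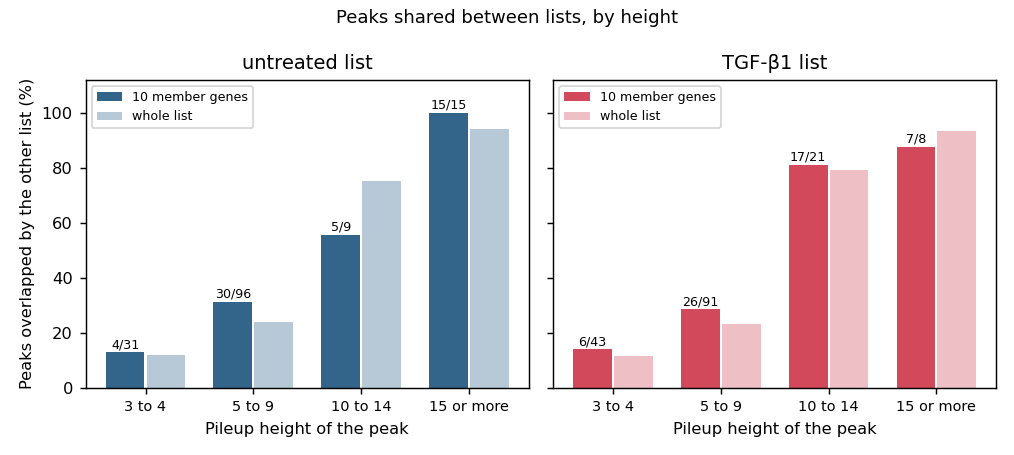
Share of peaks (vertical axis, in percent) that overlapped a peak of the other list, by pileup height of the peak, for the 10 genes (dark bars, with counts) and the whole list (pale bars), in the untreated list on the left and the TGF-β1 list on the right. The share rises with height in both, from 4 of 31 to 15 of 15 for the members in the untreated list.

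Strong peaks numbered 12 of the 151 untreated peaks (7.95%) and 8 of the 163 TGF-β1 peaks (4.91%), against 2.90% and 2.58% of the whole lists. The whole lists, here and above, also hold peaks outside genes, so member peaks and whole lists are not matched. Without TCF7L2 the TGF-β1 share was 2.52%, and the untreated share was 7.21%. By position, 6 of the 12 lay at a start, 5 inside a gene and 1 in a flank, while for TGF-β1 the split was 3, 4 and 1. The same split was not counted over all protein-coding genes, which are shorter than the members at the median, so it has no background. The flank peak in each list was the one past DVL3, in the body of AP2M1. The strong peaks inside genes were those of TCF7L2, LRP6 and CTNNB1 in the untreated list and those of TCF7L2 in the TGF-β1 list. Counting the gene and its flanks together, 7 of 10 members held some strong peak in untreated cells, against a background of 31.1%, and 3 of 10 did so after TGF-β1, against 29.9%.

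The other 103 genes of the pathway were counted by role. As a whole they lay near the background, with a start peak at 79 and 75 genes in the untreated and TGF-β1 lists, or 76.7% and 72.8%, and a strong one at 16 and 15, or 15.5% and 14.6%. The background over all protein-coding genes was 70.7% and 69.4% for any start peak and 17.0% and 15.6% for a strong one. WNT10B, FZD6, FZD7 and ZNRF3, named below, had no listed start, so both gene ends were used. Of 19 Wnt ligand genes, 9 and 8 had a start peak, and the 1 strong peak was at WNT2B, with 16 in each list, which counts as strong with TGF-β1 by the lower threshold there. The 2 peaks of 16 did not overlap, and an untreated peak of 14 overlapped the TGF-β1 one. The next were WNT1, with 10 in the TGF-β1 list and none in the untreated, and WNT10B, with 9 in the untreated list and none in the other. Of the 15 receptors, 12 had a start peak in each list. FZD4, a Frizzled receptor, was strong in the untreated list with 24, and its TGF-β1 height was 12. RYK, an atypical Wnt receptor, had 13 and 10, while FZD7 had 7 and 14 and FZD6 had 5 and 13. The untreated peaks of 7 and 5 met no TGF-β1 peak, and the TGF-β1 peaks of 14 and 13 were overlapped by other untreated peaks, of 6 and 11. Among 16 genes that control ligand or receptor levels, 10 and 9 had a start peak and none was strong in either list. DKK1, a secreted antagonist that binds LRP6, had 12 and 12, WLS, which escorts Wnt proteins to the cell surface, 12 and 10, and ZNRF3, a ubiquitin ligase for Frizzled, 11 and 11.

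The remaining roles were counted in the same way, and no test was made between roles or against the background. That background was 70.7% and 69.4% for any start peak and 17.0% and 15.6% for a strong one. CSNK1D, TNKS, MYC and ZNF703, named below, had no listed start, so both gene ends were used. Of 14 genes for partners of Dishevelled, 12 had a start peak in each list and 5 and 4 a strong one. DACT3, an antagonist that binds Dishevelled, had 31 and 25, CSNK1D, a casein kinase 1, had 19 and 22, and CXXC5, a zinc finger inhibitor of Dishevelled, had 16 and 24. Of 13 genes of the destruction complex and its control, 13 and 12 had a start peak and 3 and 4 a strong one. USP34, a deubiquitinase that acts on axin, had 28 and 19, CSNK1A1, the priming kinase for β-catenin, had 21 and 11, and TNKS, a tankyrase that marks axin for degradation, had 16 and 24. Of 14 nuclear factors, 13 in each list had a start peak and 3 and 4 a strong one. TBL1X, a corepressor subunit, had 33 and 32, BCL9, a β-catenin coactivator, had 25 and 17, and TBL1XR1 had 14 and 19. The untreated TBL1XR1 peak of 14 met no TGF-β1 peak, and the TGF-β1 peak of 19 was overlapped by an untreated peak of 10. Of 12 target genes, 10 and 9 had a start peak and 4 and 2 a strong one. MYC had 41 and 37, and ID2, an inhibitor of bHLH factors, 31 and 31. ZNF703 had 37 in the untreated list, beyond the higher-coordinate end of the gene. This peak is among the 4 counted as strong, but which end is the start was not listed, so it may not lie at the start. In the other list it had no peak within 1 kb of either end.

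**Figure D5:**
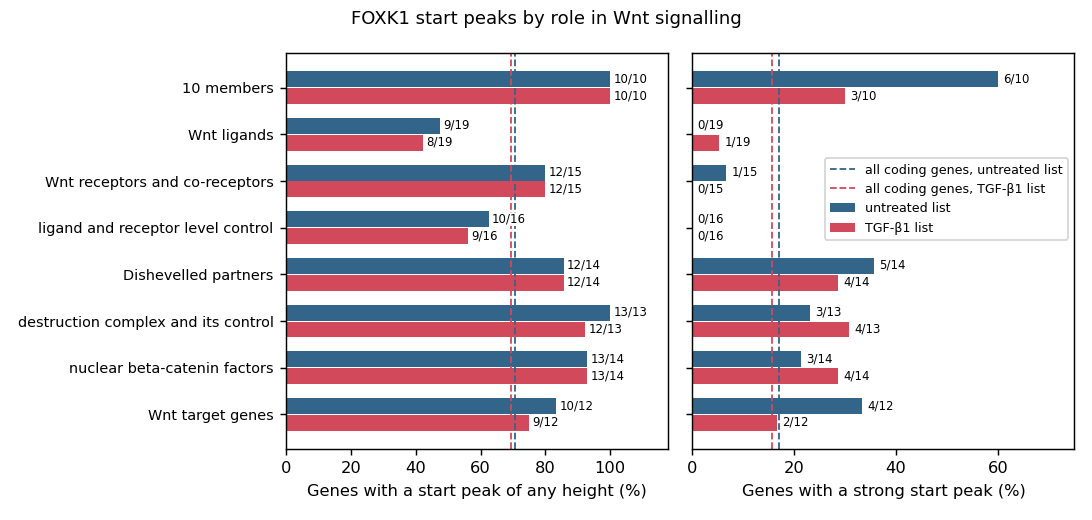
Share of genes (horizontal axes, in percent) with a FOXK1 start peak of any height on the left and a strong one on the right, for the 10 members and for the other pathway genes by role, with counts beside the bars and dashed lines at the share of all protein-coding genes. Ligand genes (9 and 8 of 19) lie to the left of the lines for peaks of any height, and the members (10 of 10) to the right.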

How the data were processed

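The authors deposited 1 peak list per condition, each peak having a position and a signal, read here as its pileup height, a whole number from 3 upwards. The submitters' processing notes name MACS2 2.1.1.20160309, bcl2fastq 2.17 and hg38. Not given in the sources used here are aligner, filters, peak threshold and depth. Starts were taken as 0-based, which could shift a printed one by 1 bp, and the 394 and 506 peaks on contigs were left out. Genes and promoters came from RefSeq GRCh38.p14, the chromosome coordinates of hg38. Exons were not used here. Overlap was counted from 1 bp with Python 3.11.15, numpy 2.4.6 and pandas 2.3.3, after tests on simulated peaks, and figures were drawn with matplotlib 3.10.9. Overlapping promoter entries on opposite strands were checked, and 3088 of 3088 were reverse complements. Of the protein-coding genes, those with no listed start were given both gene ends. The members and lists were chosen with earlier results of these data known. Named were all 10 members, the 2 genes of each role with the highest start peak in each list, and genes strong in 1 list with no start peak in the other. Alternatives were other windows, flanks, height thresholds and overlap minimums. With 1 library per group, no test was made.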

Additional observations from a re-analysis of the deposited data

How the results depend on the processing

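All 10 members kept a start peak in both lists with a window of 2.5 kb, and with 500 bp 9 and 8 did. The share of all protein-coding genes was not counted for these 2 windows, so these counts have no background. With a height of at least 10 there were 9 and 7, against 39.7% and 32.5% of protein-coding genes. Strong start peaks moved with the threshold: in the untreated list 3 members at the 5000th highest peak, in the TGF-β1 list 5 at the 20000th, where the backgrounds were 9.18% and 28.0%. Of the 103 other pathway genes, 8 and 7 were strong at the 5000th highest peak, against 9.18% and 7.70% of protein-coding genes. At the 20000th it was 31 and 29, against 27.3% and 28.0%. Peaks of height 10 or more over the members numbered 24 of 151 and 29 of 163, against 9.66% and 6.71% of the whole lists. Overlap of at least 50% of both peaks left 19.9% and 18.4% shared, and heights of 10 or more in both lists gave 66.7% and 55.2%. In both cases the alternative itself sets the change, by asking for more overlap or dropping low peaks. The whole lists were not counted under these settings. Their shares given above used an overlap of 1 bp with a peak of any height, so they are not a background here. With both gene ends as starts for all genes, 9 members had a start peak in each list, and 5 and 3 a strong one, and no background was counted. This setting, and leaving out TCF7L2, were chosen after seeing the data. No paired analysis was possible because each group had 1 library. Unknown depth limits every count of low peaks.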

Other observations

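FOXK1 itself, a partner of Dishevelled, had a start peak of 7 in the untreated list and none in the TGF-β1 list, but a peak deep in its own gene of 131 from 4744581 to 4746923 on chromosome 7 in the untreated list and of 92 from 4744367 to 4745765 in the TGF-β1 list. These peaks overlapped and lay 63.5 and 62.8 kb past the nearest listed start. A pair of other Dishevelled partners, chosen after their values were seen as FOXK1 was, also had their highest peak inside the gene. DAAM1, a formin of the planar polarity branch, had 57 and 49 about 12 kb from its nearest listed start, and DIXDC1, a DIX domain protein, had 57 and 41 at 11.8 and 11.5 kb.

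The untreated peak of 37 at ZNF703 had no overlapping TGF-β1 peak. The highest TGF-β1 peak within 5 kb of that gene, with 15, lay at another place, 4.2 kb from the nearest gene end.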
